A study of Arabidopsis thaliana with 8 samples.

Results

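The genes described here are 179 of the 27416 gene models listed for Arabidopsis thaliana seedlings, and they had their highest transcript level in the phyAB mutant after red light. They were chosen from the RPKM values (read counts scaled by gene model length and by the size of the library). For each group the mean of 2 libraries was taken, and a gene was kept where the phyAB red mean was at least 2 RPKM and at least 2 times the mean of each other group. In all, 17590 gene models reached 2 RPKM in phyAB red and 193 met both conditions. The rule then set aside 16 listed genes for DNA damage response, seed storage proteins and the protochlorophyllide oxidoreductase PORA, of which 14 met the conditions. All 179 genes are annotated as protein-coding, and 24 of them as uncharacterized or hypothetical proteins.

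The groups, of 2 libraries each, were phyAB after red light (phyAB red), phyB after red light (phyB red), wild type after red light (WT red) and wild type kept in darkness (WT dark). All seedlings were of the Col ecotype and 4.5 days old. Their seeds were chilled, then received 12 h of white light and 21 h for germination, and then spent 4 days in darkness at 22 °C, with 1% sucrose in the medium. The red treatment was 1 h at 50 µmol per square metre per second. By their names, the phyB line is mutant for the red light receptor phytochrome B and the phyAB line for phytochromes A and B; the labels do not describe the alleles. Mutant seedlings kept dark are not analysed here. A difference of phyAB red from the other groups therefore cannot be told apart from one that was present in the line before the light treatment.

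Phytochromes are red and far-red light receptors that move into the nucleus when activated and there remove transcription factors that keep dark-grown seedlings in their pale, elongated form. Several kinds of genes among those described here belong to other programmes. The plant response to DNA damage runs through the transcription factor SOG1, which raises genes of DNA repair, nucleotide supply and cell cycle arrest. Seed maturation genes encode oil body proteins and late embryogenesis abundant (LEA) proteins, which protect dry cells, and they are normally switched off as a seedling grows. Many of them carry the abscisic acid response element (ABRE) in their promoters.

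Upstream sequences of 5 of the genes are given here because they show the motif found in the seed maturation genes and, for NAC044, the SOG1 motif that most DNA damage genes of the set lacked. Each is the 250 bases before the annotated gene start, 5′ to 3′ on the strand of the gene, read from the TAIR10.1 genome, and no other annotated gene lies in these windows. They lie at chr4:12900180-12900429 (OLEO1, plus strand), chr5:25089841-25090090 (HVA22B, plus strand), chr1:17780179-17780428 (PER1, plus strand), chr3:19214472-19214721 (EM1, plus strand) and chr3:228825-229074 (NAC044, plus strand). In the first 4 the capitals mark the ABRE letters ACGTGGC or ACGTGTC on either strand, and in NAC044 they mark the fixed letters of the SOG1 motif.
OLEO1: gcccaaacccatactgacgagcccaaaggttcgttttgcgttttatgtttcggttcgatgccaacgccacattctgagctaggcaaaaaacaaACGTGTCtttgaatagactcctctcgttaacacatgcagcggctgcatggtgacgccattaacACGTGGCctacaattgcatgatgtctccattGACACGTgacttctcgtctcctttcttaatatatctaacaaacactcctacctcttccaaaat
HVA22B: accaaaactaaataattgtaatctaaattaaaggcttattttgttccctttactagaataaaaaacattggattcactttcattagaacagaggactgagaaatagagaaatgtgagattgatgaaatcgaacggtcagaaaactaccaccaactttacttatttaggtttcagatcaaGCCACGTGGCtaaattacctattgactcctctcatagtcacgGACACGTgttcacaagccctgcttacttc
PER1: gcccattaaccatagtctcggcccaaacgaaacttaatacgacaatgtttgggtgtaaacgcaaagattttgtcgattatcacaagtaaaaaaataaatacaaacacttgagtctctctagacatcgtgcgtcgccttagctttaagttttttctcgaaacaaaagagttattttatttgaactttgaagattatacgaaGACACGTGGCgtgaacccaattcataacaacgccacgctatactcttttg
EM1: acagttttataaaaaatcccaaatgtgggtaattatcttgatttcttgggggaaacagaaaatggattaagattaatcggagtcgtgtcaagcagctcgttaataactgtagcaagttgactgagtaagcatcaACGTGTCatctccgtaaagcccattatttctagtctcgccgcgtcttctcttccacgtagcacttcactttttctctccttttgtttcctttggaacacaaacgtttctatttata
NAC044: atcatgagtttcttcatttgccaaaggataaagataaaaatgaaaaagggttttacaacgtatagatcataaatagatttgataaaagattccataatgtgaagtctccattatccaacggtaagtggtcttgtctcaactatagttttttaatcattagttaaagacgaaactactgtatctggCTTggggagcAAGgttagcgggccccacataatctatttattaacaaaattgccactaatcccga

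The libraries held 15926547 to 22116924 reads, and log2 library-scaled counts of the 2 libraries of a group had a Pearson correlation of 0.995 in every group. PHYA and PHYB were read first as a check of the labels. PHYA stood at 33.0 and 32.9 RPKM in phyAB red, 185 and 185 RPKM in phyB red, 118 and 120 RPKM in WT red and 217 and 215 RPKM in WT dark. PHYB stood at 13.5 and 12.9 RPKM in phyAB red, 15.7 and 16.2 RPKM in phyB red, 23.5 and 23.3 RPKM in WT red and 20.1 and 20.3 RPKM in WT dark. The lowest values of each gene fell in lines that carry its name, and reads of both remained. The labels do not say that the 2 libraries of a group came from separate cultures, so the p-values rest on sample-to-sample spread that may be technical alone.

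Levels of the 179 genes in phyAB red ran from 2.02 to 534 RPKM with a median of 6.90 RPKM. In this group 70 genes lay between 2 and 5 RPKM, 49 between 5 and 10, 43 between 10 and 50 and 17 above 50. Together they took 0.427% of the reads in each phyAB red library, against 0.130% and 0.131% in phyB red, 0.127% and 0.128% in WT red and 0.136% and 0.137% in WT dark. The ratio of the phyAB red mean to the highest other mean had a median of 2.55; it was at least 3 for 66 genes, at least 5 for 19 and at least 10 for 5. The group with the highest other mean was phyB red for 37 genes, WT red for 75 and WT dark for 67. These values chose the genes and are given as a description, with no test.

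**Figure D1:**
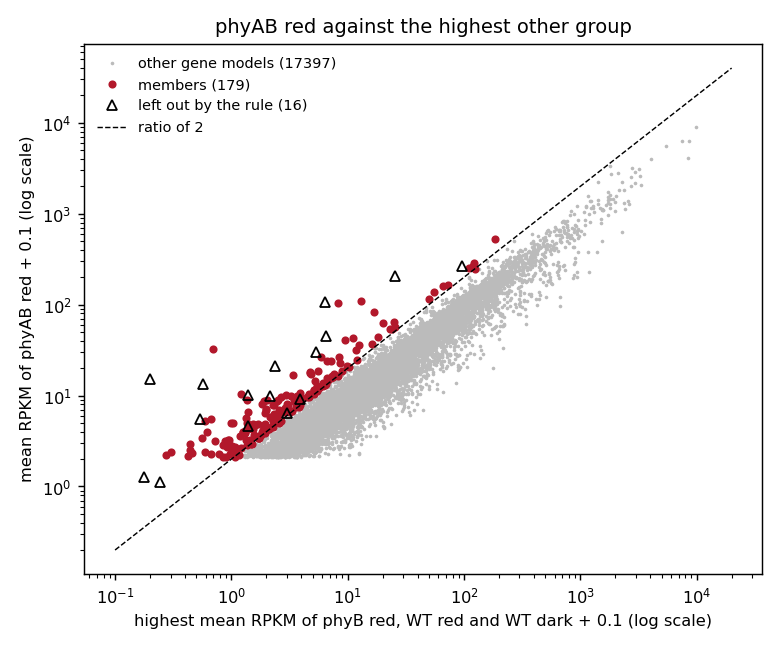
Mean RPKM of phyAB red (vertical axis) against the highest mean of phyB red, WT red and WT dark (horizontal axis), both plus 0.1 and on log scales. Red points are the 179 genes, all at a ratio of at least 2 (dashed line) before the 0.1 was added, open triangles are the 16 genes set aside and grey points are the other gene models with at least 2 RPKM in phyAB red; QRT1 is the red point at 32.1 RPKM with the highest ratio, 53.6.

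For all 179 genes both phyAB red libraries lay above all 6 other libraries, and for 121 genes each phyAB red library was at least 2 times every other one. The phyAB red libraries differed by a median of 8.22% of their mean. The widest difference was that of AT3G28310, at 5.91 and 1.93 RPKM from 40 and 10 reads, and the narrowest that of its neighbour AT14A (AT3G28300), at 54.0 and 54.0 RPKM. The rule was also applied to the libraries numbered 1 alone, where it took 182 genes. In the libraries numbered 2, 135 of these (74.2%) again had phyAB red at least 2 times each other group, against 1.17% of all 17590 gene models read in this way. Applied to the libraries numbered 2 alone it took 206 genes, of which 135 (65.5%) met the ratio in the libraries numbered 1, against a background of 1.07%. Of the 179 genes, 146 and 155 were among those taken from the libraries numbered 1 and 2. This overlap was fixed in part, since both numbers entered the choice of the 179 genes. The 2 libraries of a group may differ technically alone, so these shares may show repeat measurement only.

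**Figure D2:**
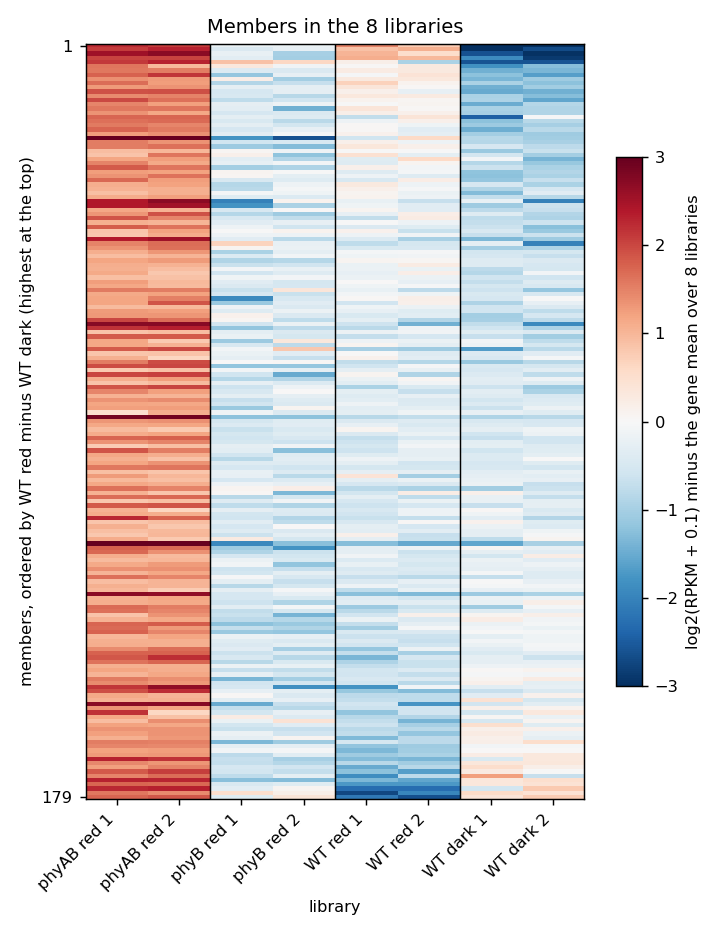
Each row is 1 of the 179 genes and each column 1 of the 8 libraries; colour gives log2(RPKM + 0.1) minus the gene's mean over the 8 libraries, from blue (low) to red (high). The 2 phyAB red columns on the left lie above the gene means, and rows are ordered from genes higher in WT red at the top to genes higher in WT dark at the bottom.

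The genes nearest the threshold were NAS4 inside it, with a ratio of 2.00 (4.94 RPKM in phyAB red and 2.47 RPKM in WT red), and SYN2 outside it, also with a ratio of 2.00 when rounded (4.09 RPKM in phyAB red and 2.05 RPKM in WT dark). MYB14, LSU3, AT4G15165 and AT4G38080 had ratios of 2.00 to 2.01 and lay just inside. AT2G41090, ATHSP22.0, AT5G46730 and AGC2-1 had ratios of 1.98 to 1.99 and lay just outside. SYN2 encodes a cohesin subunit and is on the DNA damage list used here, so the edge of the set runs through that group of genes.

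The DNA damage list held 34 genes, and 14 of them belonged to the set. Like every list used here, it was chosen with earlier results of these data known, so such counts are description only. Transcripts of these 14 genes stood at 2.14 to 114 RPKM in phyAB red. The highest was AT3G45730, an uncharacterized protein, with 114 and 114 RPKM in phyAB red, 28.3 and 27.7 RPKM in phyB red, 25.7 and 25.5 RPKM in WT red and 49.6 and 49.7 RPKM in WT dark. TK1a, a thymidine kinase that feeds the nucleotide pool for DNA synthesis, had 81.3 and 84.3 RPKM in phyAB red, 16 and 17.3 RPKM in phyB red, 14.8 and 17.2 RPKM in WT red and 14.9 and 15.9 RPKM in WT dark. In TK1a the 6 libraries outside phyAB lay between 14.8 and 17.3 RPKM, with phyB red just above WT dark and WT red overlapping both, whereas AT3G45730 was also higher in darkness than in either red group outside phyAB.

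Genes of DNA synthesis and recombination followed. TIL1, the catalytic subunit of DNA polymerase epsilon, had 7.24 and 7.08 RPKM in phyAB red, 2.80 and 2.82 RPKM in phyB red, 2.61 and 2.88 RPKM in WT red and 2.60 and 2.42 RPKM in WT dark. AT4G19130, related to the large subunit of the single-strand DNA binding protein RPA, averaged 2.18 RPKM in phyAB red, against 0.682 RPKM in phyB red, 0.869 RPKM in WT red and 0.623 RPKM in WT dark. AHP2, which acts in meiotic recombination, had 4.11 and 3.48 RPKM in phyAB red, and the means of the other groups lay between 0.903 and 1.20 RPKM. TIL1 overlaps genes on the opposite strand by 1756 and 624 bases, and AHP2 overlaps another by 1151 bases. The strandedness of the libraries is not given in the sources used here, so reads of these partners cannot be told apart.

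Regulators of the damage response and of the cell cycle were present at low levels. NAC044, a transcription factor that arrests the cell cycle after DNA damage, had 3.42 and 2.72 RPKM in phyAB red, 0.817 and 0.415 RPKM in phyB red, 0.620 and 0.375 RPKM in WT red and 0.344 and 0.409 RPKM in WT dark. Its relative NAC103 averaged 3.09 RPKM in phyAB red and 0.450 to 0.780 RPKM in the other groups. CYCB1;1, a mitotic cyclin that is also raised by DNA damage, had 4.36 and 4.98 RPKM in phyAB red, 1.84 and 1.77 RPKM in phyB red, 1.32 and 1.33 RPKM in WT red and 1.71 and 1.93 RPKM in WT dark. For each of these 3 genes the groups outside phyAB lay close together and below both phyAB red libraries.

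Among the remaining listed genes, AT5G60250, a RING finger protein, stood at 10.4 and 10.3 RPKM in phyAB red, 0.953 and 1.29 RPKM in phyB red, 0.931 and 0.479 RPKM in WT red and 0.849 and 0.319 RPKM in WT dark, a ratio of 9.23. AT5G60250 overlaps a gene on the opposite strand by 629 bases, whose reads cannot be told apart. AT4G22960 had a ratio of 12.1 at a low level, with 75 and 64 reads in phyAB red and 2 to 7 reads in each other library. GEX1, first described in gametes, averaged 4.20 RPKM in phyAB red and 0.770 to 1.28 RPKM elsewhere. TRFL10, AT2G45460 with its forkhead-associated domain, and AT2G18600 of the ubiquitin-conjugating enzyme family had ratios of 4.61, 2.61 and 2.79.

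Of the 20 listed DNA damage genes outside the set, 12 also had their highest mean in phyAB red, short of the threshold. As a background, all gene models with at least 2 RPKM in 1 phyAB red library were read in the libraries of the other number. There phyAB red was highest for 32.3% and 32.4% of them. Counts of listed genes, here and below, use means of 2 libraries with no minimum level, so this background is not like for like. SOG1 itself averaged 11.1 RPKM in phyAB red, 10.6 RPKM in phyB red, 11.3 RPKM in WT red and 12.5 RPKM in WT dark, and the damage-sensing kinase ATM 2.74, 2.47, 2.49 and 2.80 RPKM in the same order. KU70, which binds broken DNA ends for end joining, had its lowest level in phyAB red, at 5.17 RPKM against 11.4 RPKM in phyB red, 11.1 RPKM in WT red and 11.9 RPKM in WT dark, while its partner KU80 had 9.08 RPKM in phyAB red and 8.40 to 10.2 RPKM in the other groups. KU70 was singled out after its values were seen. Summed over these 20 genes, levels were 84.0 RPKM in phyAB red, 78.1 RPKM in phyB red, 75.7 RPKM in WT red and 81.7 RPKM in WT dark.

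Other genes with a role near DNA repair lay outside the list and were picked by their annotation after the values were seen. GR1 (gamma response 1) had 4.82 and 4.99 RPKM in phyAB red, 0.715 and 0.637 RPKM in phyB red, 0.795 and 0.863 RPKM in WT red and 0.757 and 1.04 RPKM in WT dark. RecQl3, a helicase, lay near the threshold with a ratio of 2.03. Of 7 genes of the SIAMESE-related family, whose products inhibit cyclin-dependent kinases, 1 was in the set. This was AT5G02220, with 4.08 and 3.69 RPKM in phyAB red, 1.28 and 1.23 RPKM in phyB red, 1.73 and 1.25 RPKM in WT red and 1.25 and 2.19 RPKM in WT dark. The most abundant of the 7 listed genes, SIM, averaged 176 RPKM in phyAB red, against 201 RPKM in phyB red, 188 RPKM in WT red and 199 RPKM in WT dark.

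**Figure D3:**
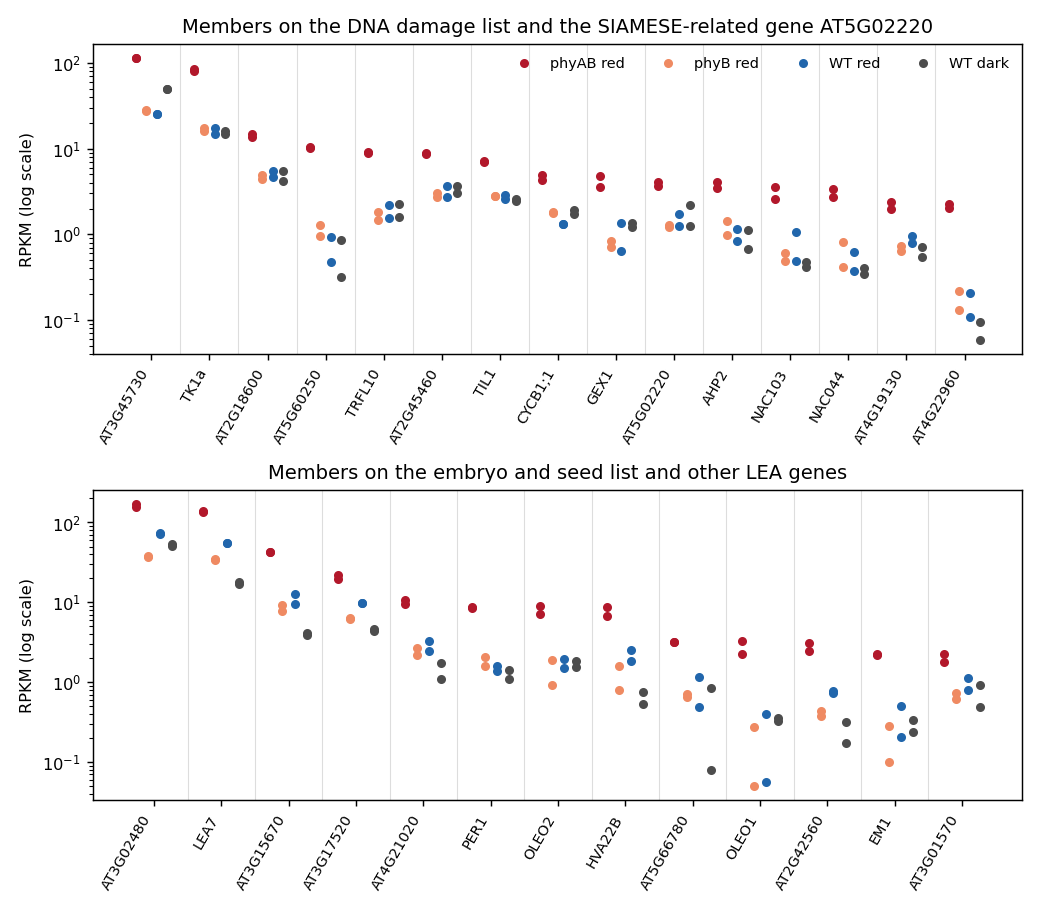
RPKM in each library on a log scale for the 14 DNA damage genes with AT5G02220 (top) and for the 7 embryo and seed maturation genes with 6 other LEA genes (bottom). Colours from left to right within a gene are phyAB red, phyB red, WT red and WT dark with 2 libraries each; the phyAB red points lie above all others for every gene shown, and LEA7 and AT3G15670 are also ordered among the other groups, with WT dark lowest.

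Of 26 embryo and seed maturation genes, 7 belonged to the set. OLEO1, an oleosin that coats seed oil bodies, had 2.28 and 3.31 RPKM in phyAB red, 0.277 and 0.0498 RPKM in phyB red, 0.0557 and 0.405 RPKM in WT red and 0.330 and 0.353 RPKM in WT dark. The values outside phyAB rest on 1 to 6 reads per library, against 45 and 50 reads in phyAB red. A second oleosin, OLEO2, had 9.04 and 7.04 RPKM in phyAB red, 1.87 and 0.933 RPKM in phyB red, 1.51 and 1.97 RPKM in WT red and 1.54 and 1.84 RPKM in WT dark. The other 3 groups overlapped for OLEO2, and for OLEO1 both phyB red libraries lay below both WT dark libraries.

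EM1, an early LEA protein of embryos, averaged 2.24 RPKM in phyAB red, against 0.190 RPKM in phyB red, 0.356 RPKM in WT red and 0.285 RPKM in WT dark. PER1, a peroxiredoxin of embryos, had 8.65 and 8.60 RPKM in phyAB red, 2.04 and 1.60 RPKM in phyB red, 1.39 and 1.62 RPKM in WT red and 1.42 and 1.08 RPKM in WT dark. HVA22B, of a family induced by abscisic acid, had 6.73 and 8.79 RPKM in phyAB red, 0.791 and 1.59 RPKM in phyB red, 1.85 and 2.55 RPKM in WT red and 0.754 and 0.538 RPKM in WT dark. AT3G15670, an LEA protein, stood at 42.5 and 43.0 RPKM in phyAB red, 7.88 and 9.26 RPKM in phyB red, 12.6 and 9.43 RPKM in WT red and 3.91 and 4.09 RPKM in WT dark. Unlike the oleosins, AT3G15670 and HVA22B were lowest in darkness.

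Of 86 genes annotated as late embryogenesis abundant, 7 were in the set. These product groups were formed after the values were seen, and the set makes up 0.653% of all gene models. Other groups formed in this way had lower shares, such as cytochrome P450 genes (4 of 248) and NAC genes (2 of 75). The most abundant LEA genes were AT3G02480, at 158 and 169 RPKM in phyAB red, 37.1 and 38.3 RPKM in phyB red, 73.5 and 72.0 RPKM in WT red and 53.2 and 51.1 RPKM in WT dark, and LEA7, at 138 and 134 RPKM in phyAB red, 34.4 and 34.3 RPKM in phyB red, 54.7 and 55.9 RPKM in WT red and 16.8 and 17.7 RPKM in WT dark. Neither is on the seed list. Oleosins and caleosins made up 4 genes of 19, among them RD20, a caleosin induced by drought, with 11.5 RPKM in phyAB red and 2.92 to 5.0 RPKM elsewhere. TIP3;1, an aquaporin of seed storage vacuoles, averaged 2.62 RPKM in phyAB red and 0.769 to 0.823 RPKM in the other groups.

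Embryo and seed genes can stand for another stage of development in the samples. Of the 26 listed genes, 10 lay below 1 RPKM in every group. The 19 listed genes outside the set summed to 53.0 RPKM in phyAB red, 24.1 RPKM in phyB red, 33.4 RPKM in WT red and 25.9 RPKM in WT dark. The background of 32.3% and 32.4% given above took gene models with at least 2 RPKM, whereas the count that follows has no minimum. That count includes genes near the floor, such as ATS3 at 0.0882 RPKM in phyAB red. Of the 19 genes outside the set, 12 had their highest mean in phyAB red. Among those that did not, DOG1, which controls dormancy, averaged 0.122 RPKM in phyAB red, 1.40 RPKM in phyB red, 1.06 RPKM in WT red and 0.318 RPKM in WT dark, and the dehydrin RAB18 had its highest mean in WT red. Of the regulators of embryo development, LEC1 and LEC2 were at 0 RPKM in phyAB red, WT red and WT dark. In phyB red they were at 0.0483 and 0.0238 RPKM. FUS3 averaged 0.0552 RPKM in phyAB red, 0.0491 RPKM in phyB red, 0.0222 RPKM in WT red and 0.0374 RPKM in WT dark. ABI3 averaged 1.20 RPKM in phyAB red, 1.15 RPKM in phyB red, 0.504 RPKM in WT red and 0.523 RPKM in WT dark. ABI5 averaged 4.95 RPKM in phyAB red, 2.92 RPKM in phyB red, 3.08 RPKM in WT red and 4.58 RPKM in WT dark. In whole seedlings fewer cells of a type and less RNA per cell cannot be told apart, and the part that a different stage of the phyAB seedlings may have in these values was not tested. Markers of other tissues gave no member: the root list (9 genes) summed to 9353 RPKM in phyAB red, 6570 RPKM in phyB red, 10205 RPKM in WT red and 7870 RPKM in WT dark. PYK10 made up most of this, and the other 8 root genes summed to 426 RPKM in phyAB red, 389 RPKM in phyB red, 341 RPKM in WT red and 346 RPKM in WT dark. Guard cell, flower and meristem markers had their highest sum in phyB red.

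Phosphate starvation genes contributed 3 of 15 listed genes. SPX1, which senses phosphate and restrains the starvation response, had 62.1 and 62.2 RPKM in phyAB red, 15.6 and 14.9 RPKM in phyB red, 17.1 and 17.9 RPKM in WT red and a mean of 19.8 RPKM in WT dark. SQD1, the first enzyme of sulfolipid synthesis, had 42.7 and 45.9 RPKM in phyAB red, 14.3 and 14.6 RPKM in phyB red, 15.5 and 13.8 RPKM in WT red and 17.8 and 18.2 RPKM in WT dark. PS2, a pyrophosphatase, averaged 5.69 RPKM in phyAB red and 1.31 to 2.04 RPKM elsewhere. The 12 other listed genes summed to 318 RPKM in phyAB red, 281 RPKM in phyB red, 300 RPKM in WT red and 263 RPKM in WT dark. Without a minimum level, unlike the background of 32.3% and 32.4% given above, 9 of these 12 genes had their highest mean in phyAB red. Among those that did not, the phosphate transporter PHT1;1 averaged 49.4 RPKM in phyAB red, 43.8 RPKM in phyB red, 53.0 RPKM in WT red and 61.6 RPKM in WT dark. AT5G03545, exceeded in level within the set by AZI1 and PORB alone, is annotated as expressed in response to phosphate starvation and had 256 and 270 RPKM in phyAB red, 105 and 102 RPKM in phyB red, 111 and 111 RPKM in WT red and 115 and 126 RPKM in WT dark.

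Other lists held few or none of the genes, where the set makes up 0.653% of all gene models. These lists too were chosen with earlier results of these data known. The salicylic acid list gave 1 of 17, PAD3, the enzyme of the last step of synthesis of the antimicrobial compound camalexin, with 3.89 and 2.72 RPKM in phyAB red, 0.454 and 0.354 RPKM in phyB red, 0.427 and 0.406 RPKM in WT red and 0.571 and 0.354 RPKM in WT dark. The jasmonate list gave 1 of 14, the allene oxide cyclase AOC1, and the iron list 1 of 19, the nicotianamine synthase NAS4. None came from the lists for sulfur deficiency (13 genes), abscisic acid, cold and drought (18), low oxygen (12), oxidative and xenobiotic stress (11), PIF-induced genes (9) or dark and sugar starvation (8). Highest means in phyAB red were seen for 13 of the 17 salicylic acid genes, 9 of the 11 oxidative stress genes and 8 of the 13 sulfur genes. They were seen for 10 of 19 iron, 6 of 12 low oxygen and 5 of 14 jasmonate genes. The abscisic acid, cold and drought list had 6 of 18, PIF-induced genes 1 of 9, and dark and sugar starvation 0 of 8. The background share of gene models given above was 32.3% and 32.4%. It covers gene models with at least 2 RPKM, whereas 6 of the 17 salicylic acid genes lay below 1 RPKM in every group. In all, 28 of the 179 genes were on a list. The lists are short, and a gene on none of them may still belong to a programme listed. LSU3 and HAI3 of the set are on no list, while LSU1 and LSU2 are on the sulfur list and HAI1 and HAI2 on the abscisic acid list.

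Lipid transfer proteins included the most abundant gene of the set. AZI1, which takes part in the priming of systemic defence, had 538 and 529 RPKM in phyAB red, 161 and 160 RPKM in phyB red, 85.6 and 92.1 RPKM in WT red and 184 and 189 RPKM in WT dark. Its neighbour EARLI1 had 111 and 108 RPKM in phyAB red, 11.8 and 14.1 RPKM in phyB red, 7.05 and 6.62 RPKM in WT red and 7.91 and 8.66 RPKM in WT dark, a ratio of 8.47. AT4G22490 had 64.1 and 62.9 RPKM in phyAB red, 13.7 and 14.8 RPKM in phyB red, 5.69 and 5.63 RPKM in WT red and 24.2 and 25.7 RPKM in WT dark. With AT4G22470, LTP4 and AT5G09370 they are 6 of 140 genes with such a product name, beside 0.653% of all gene models in the set. In AZI1 and AT4G22490 the groups outside phyAB were ordered WT red, phyB red and WT dark from low to high, without overlap.

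Genes of the cell wall and its lipid barriers were chosen here by annotation after their values were seen. QRT1, a pectin methylesterase known from pollen tetrad separation, had the highest ratio of the set, 53.6, with 31.7 and 32.6 RPKM in phyAB red, 0.338 and 0.590 RPKM in phyB red, 0.583 and 0.470 RPKM in WT red and 0.460 and 0.739 RPKM in WT dark. In reads this was 895 and 705 in phyAB red and 7 to 18 in each other library. The set held 5 of 67 genes named as class III peroxidases, beside 0.653% of all gene models. Among these 5, AT5G19890 had 9.56 RPKM in phyAB red, 0.716 RPKM in phyB red, 0.618 RPKM in WT red and 2.55 RPKM in WT dark. CYP86A1, which hydroxylates fatty acids for suberin, had 18.4 and 19.1 RPKM in phyAB red, 5.08 and 5.69 RPKM in phyB red, 5.40 and 5.54 RPKM in WT red and 5.19 and 5.11 RPKM in WT dark. The MYB factors MYB93 and MYB53 averaged 6.91 and 2.27 RPKM in phyAB red and at most 1.89 and 0.968 RPKM in another group.

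The genes with the highest ratios after QRT1 had varied annotations. AT2G18193, a P-loop nucleoside triphosphate hydrolase, had 104 and 106 RPKM in phyAB red, 5.96 and 5.97 RPKM in phyB red, 7.93 and 8.37 RPKM in WT red and 7.35 and 7.93 RPKM in WT dark, a ratio of 12.9. AT1G80130, with tetratricopeptide repeats, had 5.13 and 5.25 RPKM in phyAB red and 0.134 to 0.544 RPKM in the other libraries. AT5G39493, of the self-incompatibility S1 family, had 35 reads in phyAB red and 3 in phyB red, 3 in WT red and 2 in WT dark. AT2G43620, a chitinase, averaged 8.81 RPKM in phyAB red, against 0.553 RPKM in phyB red, 1.28 RPKM in WT red and 0.801 RPKM in WT dark. BGLU19, a beta-glucosidase, averaged 3.87 RPKM in phyAB red and 0.324 to 0.512 RPKM in the other groups. BGLU19 overlaps a gene on the opposite strand by 527 bases, whose reads cannot be told apart.

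The rule bounds the levels of phyB red, WT red and WT dark from above and leaves their order free, so the 3 comparisons among these groups were tested. Each used edgeR's quasi-likelihood test over 20716 genes with Benjamini-Hochberg adjustment, and a gene was called at an adjusted p under 0.05. All 179 genes were tested, of which 165 would have passed the filter on low counts without the phyAB red libraries. Over these 165 the calls were 39 higher and 28 lower for WT red over WT dark, 15 and 30 for phyB red over WT red and 30 and 34 for phyB red over WT dark. The comparisons share libraries with each other, so their values are given side by side. Fold changes below are log2 values of the fit ± SE.

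The first comparison, WT red against WT dark, asks what 1 h of red light did to the genes in wild type. Of the 179 genes, 39 rose with red light and 30 fell. Among all tested genes 24.1% rose and 22.7% fell. Whether a change is called depends on read depth, and the rule bounds the levels outside phyAB. The median level of the set was 1.89 RPKM in WT red and 1.78 RPKM in WT dark. Shares of all tested genes, here and in the comparisons below, are not matched for level. Changes of at least 2-fold were called for 21 genes upward and 14 downward, against 7.1% and 2.7% of all tested genes. The median over the set was 0.12, beside 0.00 over all tested genes. LDOX, an anthocyanin enzyme, had 3.96 and 3.54 RPKM in phyAB red, 0.649 and 0.647 RPKM in phyB red, 2.29 and 1.36 RPKM in WT red and no reads in WT dark. Against a floor of 3 reads over the group, WT red was at least 30.4-fold higher than WT dark and phyB red at least 10.5-fold.

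AT2G36770, a UDP-glycosyltransferase, had 5.38 and 6.28 RPKM in phyAB red, 0.848 and 0.972 RPKM in phyB red, 2.27 and 2.60 RPKM in WT red and 0.0613 and 0.0985 RPKM in WT dark, and rose in WT red (4.89 ± 0.42, adjusted p = 4.95e-18 by edgeR). PP2-B13, a phloem protein 2, and AT4G28420, of the tyrosine transaminase family, each had 79 reads in WT red and 3 in WT dark, a ratio of 28.3 with a 95% exact binomial interval of 9.33 to 140 for counting error. PP2-B13 overlaps a non-coding RNA gene on the opposite strand by 1177 bases, whose reads cannot be told apart. AT5G62210, named as an embryo-specific protein, had 90 reads in phyAB red, 30 in phyB red, 13 in WT red and none in WT dark. WT red was at least 4.65-fold above WT dark for this gene. LEA7 (1.71 ± 0.07), HVA22B (1.75 ± 0.40), AT3G15670 (1.5 ± 0.14), AT3G02480 (0.51 ± 0.07) and CP1, a calcium-binding protein (0.40 ± 0.05), also rose, and the largest adjusted p of these 5 was 0.000119 (HVA22B).

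Genes that fell in WT red, set against WT dark, included the cupin genes AT5G39180 (-3.35 ± 0.51) and AT5G39150 (-3.03 ± 0.37). AT5G39150 had 8.23 and 7.27 RPKM in phyAB red, 3.79 and 3.01 RPKM in phyB red, 0.318 and 0.616 RPKM in WT red and 4.02 and 3.63 RPKM in WT dark. The coding sequences of these cupins are 99.85% identical, and AT5G39120, outside the set, is 98.0% identical to AT5G39150, which leaves their shares of the reads uncertain. AT4G22490 (-2.11 ± 0.13), AT5G19890 (-1.99 ± 0.29), AZI1 (-1.05 ± 0.04), AT3G45730 (-0.93 ± 0.08) and PORB, which makes chlorophyllide in light (-0.51 ± 0.04), were lower as well, with adjusted p of at most 2.66e-08 by edgeR for the genes named so far in this paragraph. SQD1 was slightly lower (-0.26 ± 0.07, adjusted p = 0.00081), and lost this call when WT red replicate 2 was left out (0.0651). AT1G08165 had no reads in WT red, 8 in WT dark and 38 in phyAB red, and its call between WT red and WT dark was lost without WT red replicate 1 (adjusted p = 0.0984), WT red replicate 2 (0.0689) or WT dark replicate 2 (0.151).

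**Figure D4:**
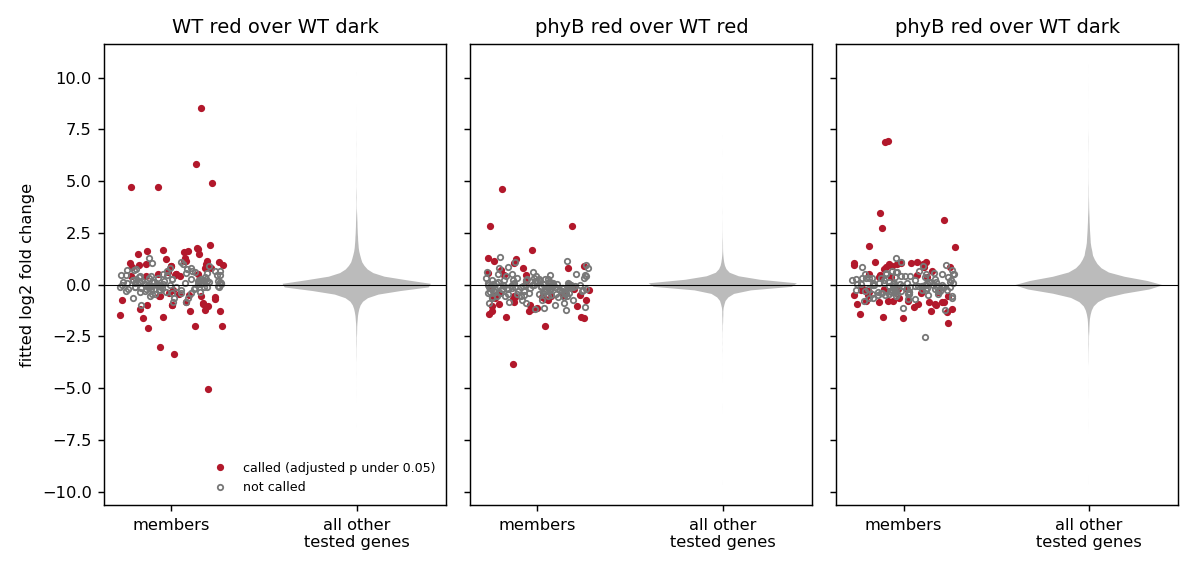
Fitted log2 fold changes in the 3 comparisons among groups other than phyAB red, for the 179 genes (points, filled where called at an adjusted p under 0.05) and all other tested genes (grey shape, width by density). Medians of the 179 genes are 0.12 for WT red over WT dark, -0.15 for phyB red over WT red and -0.05 for phyB red over WT dark; LDOX is the highest point in the WT red over WT dark and phyB red over WT dark panels.

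Between phyB red and WT red, 16 of the 179 genes were higher and 31 lower in phyB red, while 13.1% of all tested genes rose and 14% fell. Changes of at least 2-fold were called upward for 8 genes and downward for 12, against 1.16% and 1.06% of all tested genes. The count of 16 dropped to 10 without phyB red replicate 2, and the DESeq2 Wald test called 9, with 1761 higher and 1886 lower among all genes against 2712 and 2896 by edgeR. The median over the set was -0.15, beside 0.00 over all tested genes. AT3G02480 (-0.99 ± 0.07), LEA7 (-0.73 ± 0.06), CP1 (-0.54 ± 0.05), AT2G18193 (-0.49 ± 0.10) and the pectin methylesterase inhibitor AT1G70720 (-1.57 ± 0.29) were lower in phyB red, with adjusted p of at most 2.75e-05 by edgeR. AT4G28420 (-2.01 ± 0.38) and PP2-B13 (-1.60 ± 0.34) were lower too, with adjusted p of 9.4e-06 and 0.000102.

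LDOX fell in phyB red (-1.56 ± 0.34, adjusted p = 0.000141), a call lost when WT red replicate 1 was left out (0.0683). AT1G68250, an uncharacterized protein, had 171 reads in phyAB red, 1 in phyB red, 16 in WT red and 7 in WT dark. Its call as lower in phyB red was lost when replicate 2 of WT red (adjusted p = 0.102) or of phyB red (0.0961) was left out. The phosphate genes SPX1 (-0.25 ± 0.08, adjusted p = 0.018) and AT5G03545 (-0.15 ± 0.05, adjusted p = 0.011) were slightly lower. The call of SPX1 was lost when replicate 2 of WT red (adjusted p = 0.131) or of phyB red (0.162) was left out, and that of AT5G03545 when replicate 1 of WT red (0.0705) or replicate 2 of phyB red (0.171) was.

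Genes that rose in phyB red, set against WT red, were AT5G39150 (2.82 ± 0.38), AT5G39180 (2.82 ± 0.55), AT4G22490 (1.29 ± 0.14), EARLI1 (0.89 ± 0.12), AZI1 (0.81 ± 0.04) and PORB (0.45 ± 0.04), with adjusted p of at most 2.03e-05 by edgeR. PORB had 288 and 286 RPKM in phyAB red, 121 and 118 RPKM in phyB red, 83.3 and 85.6 RPKM in WT red and 124 and 121 RPKM in WT dark. FRO5, a ferric reduction oxidase, had 8.45 and 7.59 RPKM in phyAB red, 2.77 and 3.05 RPKM in phyB red, 1.46 and 1.30 RPKM in WT red and 1.21 and 1.65 RPKM in WT dark, and rose in phyB red against WT red (1.03 ± 0.19, adjusted p = 9.14e-06). Its neighbour FRO4 was called (0.57 ± 0.18, adjusted p = 0.0132), a call lost when replicate 1 of WT red (0.0723) or of phyB red (0.290) was left out. WRKY71, a transcription factor, was called in phyB red over WT red (1.66 ± 0.44, adjusted p = 0.00175), a call lost when phyB red replicate 2 was left out (0.243).

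In phyB red against WT dark, 30 of the 179 genes were higher and 34 lower, while 27.4% of all tested genes were higher and 27.1% lower. At least 2-fold changes were seen in 15 and 8 genes, against 8.03% and 2.96% of all tested genes, and the median was -0.05 beside 0.01. AT2G36770 (3.46 ± 0.52), AT3G15670 (1.10 ± 0.15) and LEA7 (0.98 ± 0.07) were higher in phyB red, with adjusted p of at most 1.69e-08 by edgeR. AT5G62210 was at least 10.2-fold higher in phyB red than in WT dark. The peroxidase genes AT5G19890 (-1.84 ± 0.28) and AT1G49570 (-1.59 ± 0.18) were lower, as were the extensin EPR1 (-1.57 ± 0.33), LCR67, a small cysteine-rich protein (-1.42 ± 0.33), and AZI1 (-0.23 ± 0.04); the largest adjusted p of these was 0.000158 (LCR67).

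By gene group, counts stand beside the shares of all tested genes given above, 24.1% higher and 22.7% lower, 13.1% and 14%, and 27.4% and 27.1%. Those shares are not matched for level, so a low count of calls may reflect few reads. Of the 14 DNA damage genes, 1 was called between WT red and WT dark (AT3G45730, lower), 0 between phyB red and WT red and 3 between phyB red and WT dark (1 higher, 2 lower); their median log2 changes were 0.12, 0.01 and 0.11. Of the 20 other listed genes, 19 were tested, and 0 were higher and 1 lower, 1 higher and 0 lower, and 1 higher and 3 lower in the same order. Of the 7 embryo and seed genes, 2 rose in WT red against WT dark (AT3G15670 and HVA22B), 1 fell in phyB red against WT red (AT3G15670, -0.40 ± 0.12, adjusted p = 0.00616) and 1 was higher in phyB red than in WT dark (AT3G15670). Of the 19 other listed seed genes, 11 were tested, and 4 were higher and 2 lower, 1 higher and 3 lower, and 4 higher and 2 lower in the same order. The call of AT3G15670 as lower in phyB red was lost when replicate 1 of WT red (adjusted p = 0.514) or of phyB red (0.102) was left out. QRT1 was not called in any of the 3, with values of -0.13 ± 0.39, -0.18 ± 0.42 and -0.31 ± 0.40 in the same order. A difference between these groups of genes was not tested.

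The 179 genes lay on all nuclear chromosomes, 44 on chromosome 1, 24 on chromosome 2, 31 on chromosome 3, 33 on chromosome 4 and 47 on chromosome 5. Between 0.576% and 0.813% of the annotated gene models of a chromosome were in the set. There were 7 pairs of neighbours with at most 1 gene model between them, which hold 13 genes. AZI1 and EARLI1 lie side by side on chromosome 4 between 7401087 and 7406994 (TAIR10.1), and FRO4 and FRO5 on chromosome 5 between 8097978 and 8108642. The other pairs were AT2G36770 and AT2G36780, AT4G22470 and AT4G22490, CYCB1;1 and AT4G37500, and the AT14A genes AT3G28290 and AT3G28300 followed by AT3G28310. AT3G28290 and AT3G28300 have identical coding sequences, and IGMT2 and CYP706A2 have copies outside the set of 97.4% and 98.1% identity, so the reads of these genes may be split between copies. Of the 179 genes, 33 overlap another annotated gene, 26 of them on the opposite strand. Reads of these opposite-strand partners cannot be told apart. The 26 genes include AT4G22470 (1317 bases shared), LEA7 (297) and TIP3;1 (290).

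Promoter windows from 250 bases before to 50 bases after the annotated start were read from the genome for all 179 genes and for 26709 protein-coding genes in all. The SOG1 motif, CTT and AAG with 7 bases between them, on either strand, was found in 12.3% of the windows of the set and in 11.7% of all windows. Among the 14 DNA damage genes 2 windows held it, those of NAC044 (shown above with the motif in capitals) and NAC103, where it begins at the first base of the gene. The ABRE letters ACGTGGC or ACGTGTC were found in 15.6% of the windows of the set and in 7.77% of all windows. They stood in 6 of the 7 embryo and seed genes, OLEO2 being the exception, and OLEO1 and HVA22B had 3 matches each before the start. The G-box CACGTG, which can overlap an ABRE, was found in 15.6% and 7.79%, the W-box TTGACC or TTGACT in 42.5% and 32.4%, and the GCC-box GCCGCC in 2.79% and 2.55%. These are shares of letters in windows, with no test, and a match in a window does not show that a factor acts there.

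**Figure D5:**
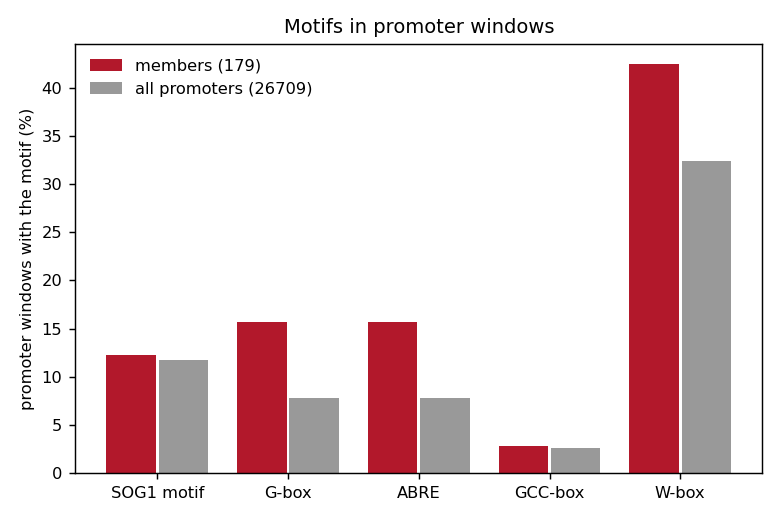
Share of promoter windows (percent) that hold each motif, for the 179 genes (red) and for all 26709 promoters (grey). The G-box and ABRE bars of the 179 genes are 15.6% against 7.79% and 7.77% of all promoters, and the SOG1 motif bars are 12.3% and 11.7%.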

How the data were processed

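RNA sequencing libraries of whole seedlings, 4 groups of 2, were analysed. Per the file headers, each deposited table lists unnormalized read counts beside RPKM values, the latter scaled by the authors for gene model length and library total. The submitters' processing notes name the build TAIR10. Not given in the sources used here are the aligner, the counting tool, how multiply mapping reads were treated, and strandedness. The 179 genes were chosen from the RPKM columns by the rule stated above, and comparisons with phyAB red are therefore description only.

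Counts were fitted in R 4.3.3 with edgeR 4.0.16. The filter was filterByExpr at a count minimum of 10, which left 20716 genes; these were scaled by TMM and fitted with 4 group means over all 8 libraries. The quasi-likelihood F-test was adjusted by Benjamini-Hochberg over all tested genes at 0.05. Standard errors were derived from the F value and the log2 fold change (its size over the root of F). The common biological coefficient of variation was 1.59%, so small changes pass easily. The fit was also run on simulated counts whose spread was estimated from these libraries, so that run cannot show how calls hold over separate cultures. Alternatives were DESeq2 1.42.0, edgeR with the DESeq2 size factors, an unfiltered fit, a replicate block, the libraries of the 2 groups only, leaving out each library, a 2-fold minimum and other thresholds of the rule. Same-numbered libraries did not deviate together, with correlations of -0.00 to 0.03.

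Coordinates, names and sequences come from the TAIR10.1 assembly and its RefSeq annotation. Promoter windows were read from that genome. Near-identical copies were sought with blastn 2.17.0 at 95% identity over 80% of the coding length. The 17 gene lists and the genes of the set were chosen with earlier results of these data known. Genes were named if among the 20 with the highest level, the 10 with the highest ratio, those nearest the threshold, those on a list, neighbours, and the 5 with the largest change in each direction of each tested comparison, and genes named for their annotation outside this rule were chosen after their values were seen. Applying the rule to libraries of 1 number alone, and counting only genes that pass the filter without phyAB red, were added after seeing the data. Intervals and floors cover counting error only; sequencing reads are not independent molecules.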

Additional observations from a re-analysis of the deposited data

How the results depend on the processing

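The number of genes meeting the rule was 158 with TMM-scaled RPKM, 259 with a minimum of 1 RPKM and 171 to 196 with 1 library left out. It changed to 109 with a minimum of 5 RPKM, 66 with a ratio of 3 and 552 with a ratio of 1.5. In the tested comparisons, counts of called genes of the set stayed within 1.5 times of those given under DESeq2 size factors, without the filter on low counts, in the libraries of the 2 groups alone and, except for the values that follow, in the DESeq2 Wald test. That test called 9 genes of the set as raised in phyB red against WT red, and 1761 higher and 1886 lower among all genes. At least 2-fold changes among all genes numbered 1471 higher and 559 lower for WT red over WT dark, 241 and 219 for phyB red over WT red and 1663 and 614 for phyB red over WT dark; in the set they numbered 21 and 14, 8 and 12, and 15 and 8. With 1 library left out, the set had 32 to 36 higher and 22 to 28 lower for WT red over WT dark, 10 to 15 and 22 to 26 for phyB red over WT red, and 20 to 28 and 24 to 36 for phyB red over WT dark; the lone library of a group was then assumed to vary like the others. Fitted with the replicate block, which rests on numbers that do not pair the libraries, the set had 39 and 30, 16 and 31, and 31 and 34. Of 490 refitted values of the genes named in these comparisons 460 kept their direction and call, 30 lost the call and 0 reversed. The cause of these changes was not tested. Genes with few reads, such as AT1G08165 and AT5G39493, are limited by depth.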
